A study of Homo sapiens with 12 samples.

Results

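Potassium channel genes were taken from the RNA-seq tables as the rows whose gene name begins with KCN, continues with letters and ends in a number. The rule found 81 genes among 35913 genes with counts, of which 78 were in the siCHD4 table, 73 in that of siCHD3 and 70 in both. Expression was measured in 501Mel, an established human melanoma cell line, 72 h after transfection with an siRNA pool against CHD4 (siCHD4) or CHD3 (siCHD3), ATPase subunits of the NuRD chromatin remodelling complex, or with a control siRNA (siCtrl). No other treatment or allele was named for these cells. Each silencing had 3 libraries. siCHD4 was set against siCtrl replicates 1 to 3 and siCHD3 against siCtrl replicates 4 to 6, from the same table, so the comparisons share no library. The study describes its replicates as biological, and how their cultures were kept apart is not stated in the labels.

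Potassium channels let potassium ions pass the plasma membrane and, in most cells, hold the membrane potential near the potassium equilibrium. Inward rectifiers (KCNJ) conduct best near rest, two-pore channels (KCNK) carry background current, voltage-gated channels (KCNA to KCNH, with the silent modifier subunits KCNG, KCNS and KCNV, and KCNQ) open on depolarisation, and other channels open with calcium, sodium or pH (KCNMA, KCNN, KCNT, KCNU). Accessory subunits (KCNAB, KCNE, KCNIP, KCNMB) form no pore but alter the gating or trafficking of the pore-forming ones. By these groups the 81 genes were 13 KCNJ, 10 KCNK, 5 KCNQ, 31 voltage-gated or silent, 8 activated by calcium, sodium or pH, and 14 accessory genes.

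Libraries held 38573214 to 102005319 counts. CHD4 was at 79.6, 58.6 and 63.2 CPM after siCHD4, against 567, 488 and 591 CPM in siCtrl, and CHD3 was at 18.9, 18.1 and 17.7 CPM after siCHD3, against 77.3, 95.4 and 96.3 CPM in siCtrl (CPM, counts scaled to library size with TMM factors). After siCHD3, CHD4 itself was at 571, 525 and 588 CPM, against 300, 330 and 358 CPM in siCtrl (0.77 ± 0.13 on the log2 scale, edgeR adjusted p = 0.00132), short of the 1 that a call asks for. siCtrl replicate 3 stood apart, with 44966728 counts and the lowest scaling factor (0.816), and calls made without it are given as well. The 7 markers of the melanocyte lineage were expressed in every group, and none was called in either comparison.

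The potassium channel genes of 501Mel cells spanned a wide range, from a few well expressed genes to many near the detection limit. In siCtrl replicates 1 to 3, 16 of 78 members reached a mean of 1 CPM, 40 were under 0.1 CPM and 7 had no count. In siCtrl replicates 4 to 6, 24 of 73 members reached 1 CPM, 22 were under 0.1 CPM and 3 had no count. Genes were ranked per kb, with the gene length the authors used. KCNAB2, an accessory beta subunit of voltage-gated channels, was the highest in siCtrl of both tables, at 428 CPM per kb (273 to 644 over the libraries) in the siCHD4 table and 373 CPM per kb (278 to 427) in the siCHD3 table. It took 68.1% and 61.2% of all reads of the members in these siCtrl groups. KCNS3, a silent modifier subunit, followed at 53.5 CPM per kb in both tables (35.7 to 70.5 and 50.6 to 58.4), and KCNN2, a small-conductance calcium-activated channel, at 26.3 (20.4 to 31.4) and 44.2 (42.4 to 46.1) CPM per kb. The ranges of these 3 genes did not overlap with each other within either table.

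Below them the ranges of neighbouring ranks mostly overlapped. In the siCHD4 table KCNU1 (16.3 CPM per kb in siCtrl), KCNQ5 (13.2), KCNIP2 (8.41), KCNC4 (6.95), KCNIP3 (4.47), KCNH3 (3.04) and KCNE4 (2.82) followed, and no adjacent pair of these 7 had separate ranges. KCNU1 is the pH-gated channel known from sperm, KCNQ5 carries part of the M current of neurons, and KCNIP2 and KCNIP3 are calcium-binding partners of KCND channels. In the siCHD3 table KCNQ5 (23.1), KCNU1 (6.78), KCNAB1 (5.13), KCNIP2 (3.99), KCNC4 (3.64), KCNE4 (2.95) and KCNIP3 (2.06) followed, with separate ranges between KCNQ5 and KCNU1 and between KCNE4 and KCNIP3. The order rests on the lengths, which are short for some genes: KCNAB2 was assigned 0.938 kb, against 17.2 kb for all its exons in GENCODE. With exon lengths KCNAB2 stayed first at 23.3 and 20.3 CPM per kb, and 10 of the 10 genes of the siCHD4 table and 8 of the 10 of the siCHD3 table were again among the 10 highest. KCNAB1 and KCNC4 were then at ranks 13 and 15 of the siCHD3 table.

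**Figure D1:**
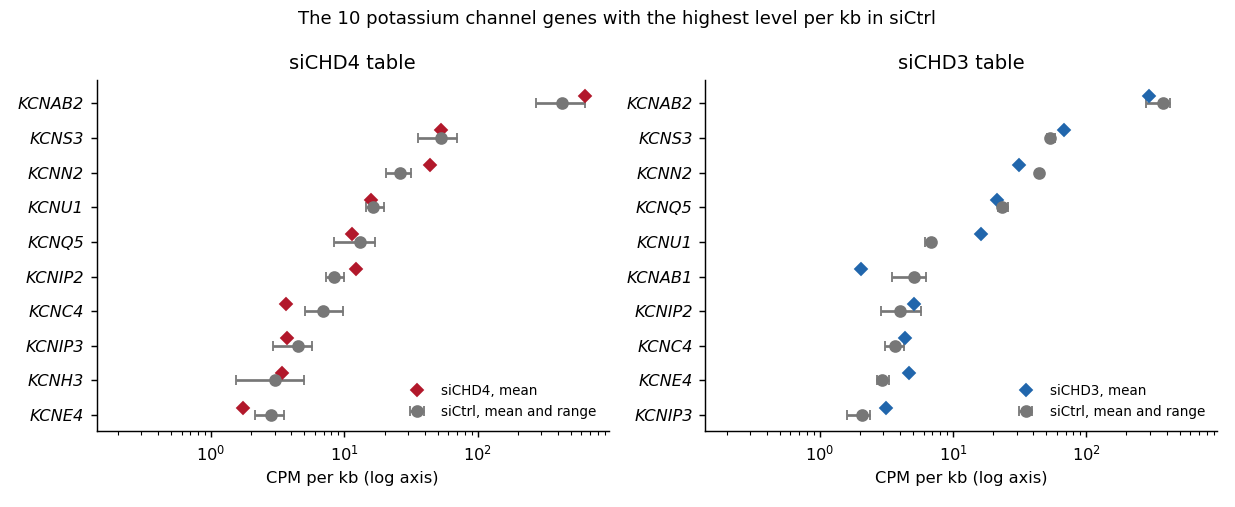
CPM per kb (log axis, authors' gene length) of the 10 potassium channel genes with the highest level in siCtrl of each table. Diamonds are the mean of the 3 silenced libraries, circles and bars the mean and range of the 3 siCtrl libraries, and KCNAB2 lies apart at the top in both tables (428 and 373 CPM per kb in siCtrl).

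Potassium channel genes that changed after siCHD4 were higher, and most of them were inward rectifiers. Of 46 members with enough counts to test, 7 were higher, where 4.8% of all 17018 genes tested were higher (called at an edgeR adjusted p under 0.05 over all genes and an absolute log2 fold change over 1). KCNJ genes made up 5 of the 7, KCNJ10, KCNJ12, KCNJ4, KCNJ15 and KCNJ3, from 10 KCNJ genes tested. The other 2 were the two-pore channel KCNK9 and the accessory subunit KCNAB1. KCNJ12, KCNJ4, KCNJ3 and KCNK9 were so low in siCtrl that only their siCHD4 libraries gave them enough counts to test. They could thus be tested because they were high after siCHD4, and their number is no separate support for a rise of the family. In either direction the share called was 6.45% of all genes. No member was lower by edgeR, where 1.65% of all genes were lower, although 9 had an unadjusted p under 0.05 on that side (in either direction 25 of the 46 did, and 3709 of all 17018 genes), and DESeq2 called 1, KCNH4, lower. By the adjusted p alone the same 7 passed, where 7.13% of all genes did. Each silenced library was above each siCtrl library for 17 of the 46, where this held for 16.8% of all genes, and below for 10, where it held for 14.5%. The median log2 fold change of the 46 members was 0.32, against -0.06 over all genes.

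The sequences before the start sites of the inward rectifiers that changed are shown because they differ widely in CG content. They are the 250 bases before the RefSeq start (GRCh38.p14, strand of the gene, 5′ to 3′) of the KCNJ genes higher after siCHD4, of KCNJ2, which was higher after siCHD3, and of KCNJ6, which was lower after siCHD3, with CG dinucleotides in capitals. KCNJ12 had no entry. KCNJ10 is chr1:160070161-160070410 on the minus strand, KCNJ15 chr21:38272258-38272507 on the plus strand, KCNJ3 chr2:154698445-154698694 on the plus strand, KCNJ4 chr22:38444029-38444278 on the minus strand, KCNJ2 chr17:70169282-70169531 on the plus strand and KCNJ6 chr21:37916458-37916707 on the minus strand.
KCNJ10: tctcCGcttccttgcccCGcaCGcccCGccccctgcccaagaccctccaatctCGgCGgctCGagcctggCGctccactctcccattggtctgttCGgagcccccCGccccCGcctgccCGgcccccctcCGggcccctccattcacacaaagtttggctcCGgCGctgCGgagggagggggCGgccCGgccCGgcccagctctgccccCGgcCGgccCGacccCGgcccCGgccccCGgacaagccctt
KCNJ15: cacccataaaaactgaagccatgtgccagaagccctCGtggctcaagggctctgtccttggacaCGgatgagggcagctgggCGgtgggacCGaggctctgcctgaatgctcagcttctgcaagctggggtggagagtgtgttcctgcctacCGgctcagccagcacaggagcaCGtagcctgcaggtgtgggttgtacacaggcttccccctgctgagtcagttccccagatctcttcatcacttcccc
KCNJ3: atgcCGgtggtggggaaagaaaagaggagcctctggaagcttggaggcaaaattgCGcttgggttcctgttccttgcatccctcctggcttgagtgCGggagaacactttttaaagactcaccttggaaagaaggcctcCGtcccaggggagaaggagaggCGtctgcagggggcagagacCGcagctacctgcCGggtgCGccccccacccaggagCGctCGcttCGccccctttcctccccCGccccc
KCNJ4: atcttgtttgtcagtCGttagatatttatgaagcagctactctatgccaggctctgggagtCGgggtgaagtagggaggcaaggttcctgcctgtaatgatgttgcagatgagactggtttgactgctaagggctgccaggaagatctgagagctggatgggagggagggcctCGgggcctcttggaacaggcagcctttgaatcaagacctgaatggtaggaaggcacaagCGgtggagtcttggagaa
KCNJ2: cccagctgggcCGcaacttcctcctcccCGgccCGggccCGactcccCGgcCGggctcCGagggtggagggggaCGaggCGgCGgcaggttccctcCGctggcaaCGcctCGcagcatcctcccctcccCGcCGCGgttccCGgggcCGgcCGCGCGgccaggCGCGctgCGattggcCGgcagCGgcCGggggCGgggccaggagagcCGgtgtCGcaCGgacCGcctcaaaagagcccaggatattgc
KCNJ6: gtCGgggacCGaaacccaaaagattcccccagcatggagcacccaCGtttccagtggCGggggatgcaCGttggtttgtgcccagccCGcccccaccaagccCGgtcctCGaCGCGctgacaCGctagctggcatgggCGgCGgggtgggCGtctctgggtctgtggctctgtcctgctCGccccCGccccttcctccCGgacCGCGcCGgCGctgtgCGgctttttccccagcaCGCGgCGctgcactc
KCNJ10, KCNJ2 and KCNJ6 held 25, 32 and 25 CG dinucleotides and KCNJ3 held 12, while KCNJ15 held 6 and KCNJ4 held 4. The median was 17 over the 60 members with an entry and 11 over all 35116 promoters. These sets are not alike. Each member entered with a single promoter, while the 35116 were not reduced in this way or limited to protein-coding genes. The letters TGANTCA, read on both strands, were found in KCNJ15 and KCNJ4, in 4 of the 60 members (6.67%) and in 6.57% of all promoters. CACGTG was found in none of the 6, in 3 of the 60 members (5%) and in 6.34% of all promoters. A match is only a match of letters, and the counts per gene do not show which start site was used.

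KCNJ10 (GRCh37 chr1:159968441-160039950, minus strand), the inward rectifier by which glia and the stria vascularis of the inner ear handle potassium, had the smallest adjusted p of the members. It was at 17.5, 17.1 and 17.4 CPM after siCHD4, against 2.59, 2.3 and 2.07 CPM in siCtrl, and the groups lay far apart. The log2 fold change was 2.90 ± 0.20 (SE, 3 libraries a group; edgeR adjusted p = 0.000655), a 7.45-fold rise. KCNJ12 (chr17:21279669-21323182, plus strand), a strong inward rectifier of muscle and heart, had 87, 88 and 107 counts after siCHD4, against 0, 2 and 1 counts in siCtrl. Nearly all its counts were thus in the silenced libraries, at a ratio of 69.5 (95% interval 23.6 to 339, counting error only) and a fitted log2 fold change of 5.94 ± 0.59 (adjusted p = 0.00223 by edgeR). With so few counts in siCtrl the fitted value moved between 5.16 without siCtrl replicate 1 and 6.72 without siCtrl replicate 2. KCNJ12 has a near-identical paralogue, KCNJ18, so which of them gave these reads is uncertain.

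KCNJ4 (chr22:38822332-38851205, minus strand), a strong inward rectifier of brain and heart, was at 0.932, 0.907 and 0.94 CPM after siCHD4, against 0.0528, 0.079 and 0.191 CPM in siCtrl. The silenced libraries were tight and the highest siCtrl value was that of replicate 3. Its log2 fold change was 3.27 ± 0.45 (edgeR adjusted p = 0.00669). KCNJ15 (chr21:39527643-39679279, plus strand), the closest relative of KCNJ10, was at 1.25, 1.04 and 1.31 CPM after siCHD4, against 0.412, 0.329 and 0.191 CPM in siCtrl, or 1.90 ± 0.32 on the log2 scale (adjusted p = 0.0132 by edgeR). KCNJ3 (chr2:155554367-155714866, plus strand), a subunit of the G protein-gated channels that slow the heart and inhibit neurons, had 21, 26 and 38 counts after siCHD4, against 9, 4 and 1 counts in siCtrl. Both genes were low, without overlap between the groups, and the log2 fold change of KCNJ3 was 2.19 ± 0.47 (edgeR adjusted p = 0.0306).

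The remaining KCNJ genes did not move as one. KCNJ6 and KCNJ5, the G protein-gated partners of KCNJ3, had log2 fold changes of 1.27 ± 0.49 and 1.06 ± 0.43 and did not pass (edgeR adjusted p = 0.186 and 0.205), although each silenced library was above each siCtrl library. KCNJ14, another strong inward rectifier, was at -1.32 ± 0.41 (edgeR adjusted p = 0.11) with each silenced library below each siCtrl library. KCNJ2 and KCNJ13 overlapped between the groups, at 0.38 ± 0.37 and -0.62 ± 0.54 (edgeR adjusted p = 0.61 and 0.559). KCNJ9, KCNJ11 and KCNJ16 had too few counts to be tested. Summed over the 13 genes, KCNJ reads were 24 to 25 CPM after siCHD4, against 5.6 to 6.79 CPM in siCtrl, of which KCNJ10 alone gave 17.1 to 17.5 CPM after siCHD4, against 2.07 to 2.59 CPM in siCtrl.

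**Figure D2:**
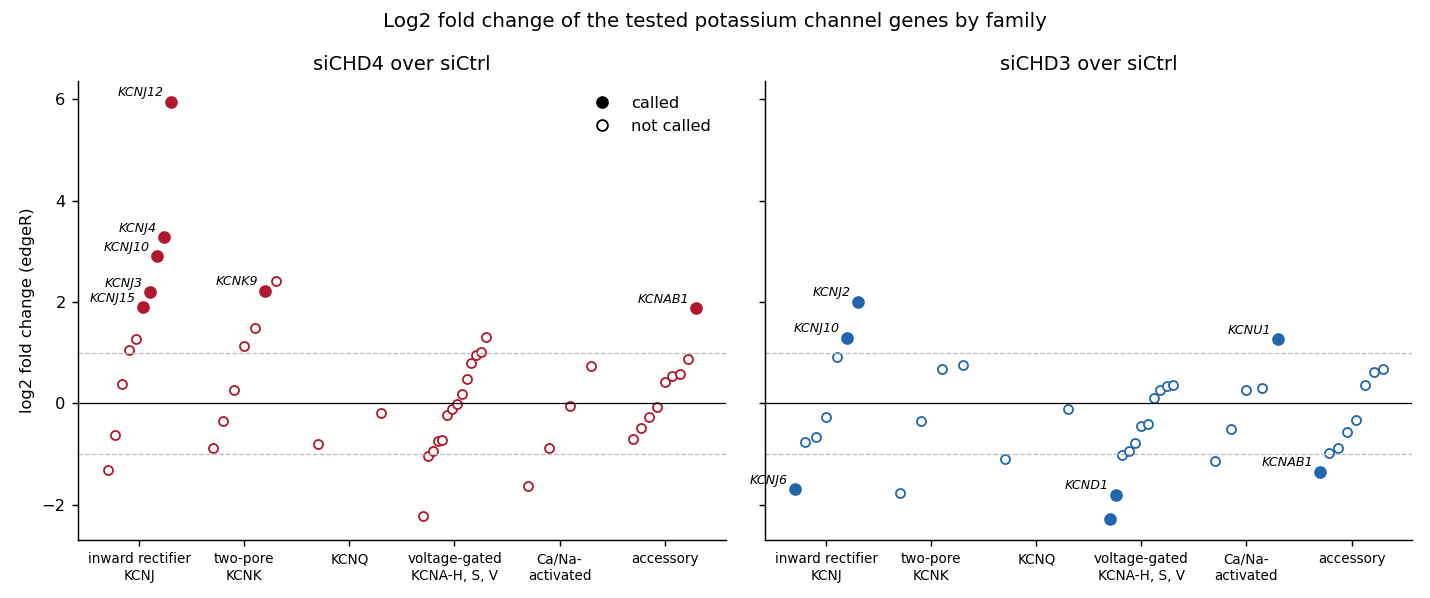
Log2 fold change (edgeR, vertical axis) of every tested potassium channel gene by family, siCHD4 over siCtrl 1 to 3 on the left and siCHD3 over siCtrl 4 to 6 on the right, with called genes filled, those the text describes named, and dashed lines at the call limit of 1. After siCHD4 the 7 called genes are all above 0 and 5 are KCNJ, and after siCHD3 3 called genes lie above and 4 below 0.

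Among the two-pore channels, KCNK9 (chr8:140613081-140716352, minus strand), an acid-sensitive background channel, had 41, 28 and 38 counts after siCHD4, against 10, 4 and 3 counts in siCtrl. The groups did not overlap, and the log2 fold change was 2.22 ± 0.41 (edgeR adjusted p = 0.0183). Its relative KCNK3 had 25, 36 and 59 counts after siCHD4, against 8, 9 and 0 in siCtrl, and missed the threshold (2.42 ± 0.63, edgeR adjusted p = 0.0631). It passed by DESeq2 (adjusted p = 0.00634) and without siCtrl replicate 3, the library with no count of it (edgeR adjusted p = 0.0039). KCNK5, an alkaline-activated channel of epithelia, was at 0.495, 0.547 and 0.67 CPM after siCHD4, against 0.201, 0.25 and 0.354 CPM in siCtrl (1.13 ± 0.33, edgeR adjusted p = 0.0914, and 0.00836 without siCtrl replicate 3). In all, 1 of 7 tested KCNK genes was higher, and the log2 fold changes ran from -0.87 for the mechanosensitive KCNK2 to that of KCNK3.

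KCNAB1 (chr3:155755490-156256927, plus strand), which speeds the inactivation of KCNA channels, was the called accessory subunit of the 9 tested. It was at 4.28, 3.71 and 4.5 CPM after siCHD4, against 1.49, 1.09 and 0.763 CPM in siCtrl. The silenced libraries lay clear of the siCtrl libraries, by a log2 difference of 1.88 ± 0.28 (adjusted p = 0.00851 by edgeR). KCNAB2, by far the highest member per kb, was at 564, 642 and 596 CPM after siCHD4, against 256, 345 and 603 CPM in siCtrl (0.58 ± 0.31, edgeR adjusted p = 0.331). Only siCtrl replicate 3 overlapped with the silenced libraries for KCNAB2, which was called higher when that library was left out. KCNE4, a partner that inhibits KCNQ and KCNA channels, was at -0.71 ± 0.23 (edgeR adjusted p = 0.118), and KCNIP2 at 0.54 ± 0.21 (edgeR adjusted p = 0.186).

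Pore-forming genes of the other families gave no call after siCHD4. Of the 14 voltage-gated or silent genes tested, 7 had an unadjusted p under 0.05, 3 higher and 4 lower, where 3709 of all 17018 genes did, and DESeq2 called KCND1 higher and KCNH4 lower. KCNC4, a fast voltage-gated channel, was at 9.98, 11.9 and 11 CPM after siCHD4, against 15.2, 18.2 and 29.4 CPM in siCtrl (-0.93 ± 0.28, edgeR adjusted p = 0.0966, and -0.59 without siCtrl replicate 3). KCND1, which carries transient A-type current, was at 1.7, 1.73 and 1.71 CPM after siCHD4, against 0.707, 0.606 and 1.28 CPM in siCtrl (1.02 ± 0.31, edgeR adjusted p = 0.103). KCNH4, called lower by DESeq2, was low in every library but siCtrl replicate 3, at 0.0806, 0.105 and 0.158 CPM after siCHD4, against 0.232, 0.263 and 1.25 CPM in siCtrl, and edgeR did not call it without that library. KCNN2 was at 52.2, 51.2 and 51.2 CPM after siCHD4, against 36.9, 31.8 and 24 CPM in siCtrl (0.74 ± 0.22, edgeR adjusted p = 0.0989). Of the 4 tested genes of its group, 3 had an unadjusted p under 0.05, KCNN2 higher and the other 2 lower. KCNQ5 was at -0.20 ± 0.28 (edgeR adjusted p = 0.74), and no tested KCNQ gene had an unadjusted p under 0.05. The silent subunit KCNS3 had a log2 fold change of -0.01 ± 0.27 and KCNU1 of -0.04 ± 0.22.

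**Figure D3:**
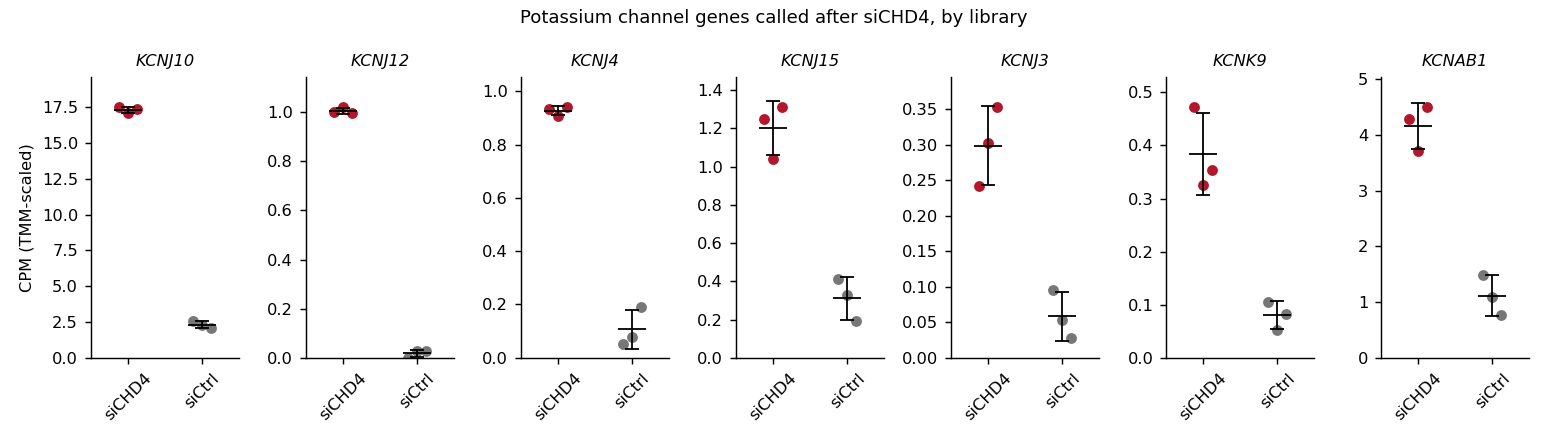
CPM (TMM-scaled) in each library of the 7 potassium channel genes called after siCHD4, siCHD4 on the left and siCtrl 1 to 3 on the right of each panel, with a black bar for mean and SD over 3 libraries. Each axis starts at 0 and has its own scale, and no siCtrl library reaches a silenced library, from KCNJ10 at 17.1 to 17.5 CPM after siCHD4 down to KCNJ3 at 0.242 to 0.353 CPM.

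Without at least 1 of the libraries 5 of the 7 calls were lost, while all 7 were kept without siCtrl replicate 1 and without siCtrl replicate 3. KCNJ10 (log2 fold changes of 2.84 to 2.99) and KCNJ12 kept their calls in each of the 6 fits that left out 1 library. Without siCtrl replicate 2 or siCHD4 replicate 1, those 2 were the only members called, and KCNAB1 (adjusted p 0.0602 and 0.0593) and KCNJ4 (0.0543 and 0.0508) just missed. KCNJ15 (0.0571 to 0.0813), KCNJ3 (0.108 to 0.16) and KCNK9 (0.0748 to 0.106) also lost their calls without siCHD4 replicate 2 or 3, which left 4 members. Over the 6 fits the log2 fold changes stayed at 1.70 to 2.14 for KCNAB1, 2.92 to 3.83 for KCNJ4, 1.71 to 2.14 for KCNJ15, 1.99 to 2.74 for KCNJ3 and 1.97 to 2.57 for KCNK9. Without siCtrl replicate 3, 15 members were higher, where 8.83% of 17571 genes were, the 7 above with KCNAB2, KCND1, KCNH2, KCNH6, KCNJ6, KCNK1, KCNK3 and KCNK5. None was lower without siCtrl replicate 3 by edgeR, where 2.73% of genes were. Without siCtrl replicate 1, KCNC4 was called lower (-1.11). Over all genes the number higher moved as well, between 232 and 1551. Marker genes of other cell types moved with siCHD4 too. The 5 glial and neuronal markers summed to 357 to 370 CPM after siCHD4, against 174 to 253 CPM in siCtrl, with GFAP and SNAP25 among the 3 that were higher and no marker at 0, and the 5 fibroblast markers to 8.52 to 8.93 CPM, against 6.73 to 9.88 CPM, with PDGFRB higher. The leukocyte markers summed to 0.707 to 1.16 CPM after siCHD4, against 0.137 to 0.327 CPM in siCtrl, with ITGAM among the 2 that were higher and CD3E at 0. The endothelial markers summed to 1.22 to 2.03 CPM after siCHD4, against 0.136 to 0.433 CPM in siCtrl, with CDH5 and VWF higher and PECAM1 at 0, and no keratinocyte marker was called. Their part in the result was not tested, and in bulk RNA more cells with a gene and more RNA per cell cannot be told apart.

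CHD3 silencing moved potassium channel genes in both directions. Of 37 members tested, 3 were higher, KCNJ2, KCNU1 and KCNJ10, where 3.89% of all 16115 genes tested were higher. The 4 that were lower included KCND1, KCNAB1 and KCNJ6, where 4.33% of all genes were lower. In either direction the share called was 8.22% of all genes. By the adjusted p alone 4 were higher and 6 lower, where 20.3% of all genes passed in either direction. Each silenced library was above each siCtrl library for 6 of the 37, where this held for 19.7% of all genes, and below for 14, where it held for 17.4%. The median log2 fold change was -0.34 over the members and -0.02 over all genes, and 22 of the 37 were below 0. The KCNJ genes did not share a direction here, with 2 higher and 1 lower of 7 tested, and the voltage-gated or silent genes gave 2 lower of 11. In either direction 42.9% of the 7 KCNJ genes were called, against 18.9% of the 37 members.

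KCNJ2 (chr17:68164814-68176185, plus strand), the strong inward rectifier that sets the resting potential of heart and skeletal muscle, had the smallest adjusted p. It was at 10.8, 9.62 and 8.48 CPM after siCHD3, against 2.05, 3.18 and 1.91 CPM in siCtrl. The groups were well separated, by a log2 difference of 2.01 ± 0.23 (adjusted p = 0.000116 by edgeR), a 4.02-fold rise. KCNU1 (chr8:36641842-36793643, plus strand) was at 17.1, 15.3 and 17.1 CPM after siCHD3, against 7.29, 6.22 and 7.08 CPM in siCtrl (1.27 ± 0.17, edgeR adjusted p = 0.000271). KCNJ10 was at 1.39, 1.09 and 1.75 CPM after siCHD3, against 0.895, 0.385 and 0.459 CPM in siCtrl (1.30 ± 0.36 on the log2 scale, edgeR adjusted p = 0.0215). KCNJ10 was the sole member called higher in both comparisons.

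KCND1 (chrX:48818639-48828251, minus strand) was at 0.579, 0.378 and 0.396 CPM after siCHD3, against 1.53, 1.52 and 1.66 CPM in siCtrl (-1.80 ± 0.30, edgeR adjusted p = 0.0012). KCNAB1 was at 1.18, 1.06 and 1.26 CPM after siCHD3, against 3.63, 3.26 and 2.01 CPM in siCtrl (-1.34 ± 0.27, edgeR adjusted p = 0.00428). Both genes fell in every silenced library below the lowest siCtrl library. KCNJ6 (chr21:38979675-39493439, minus strand), a G protein-gated subunit, had 6, 12 and 7 counts after siCHD3, against 14, 22 and 39 counts in siCtrl (-1.69 ± 0.51, edgeR adjusted p = 0.0322). KCNJ6 rests on few counts, without overlap between the groups, and it had enough counts to test only through its siCtrl libraries.

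**Figure D4:**
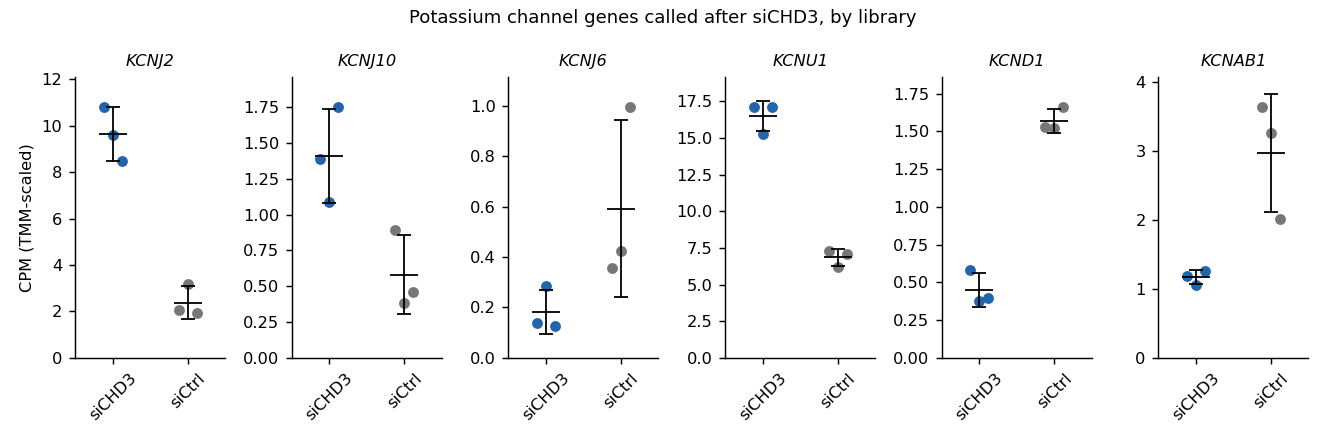
CPM (TMM-scaled) in each library of 6 potassium channel genes called after siCHD3, siCHD3 on the left and siCtrl 4 to 6 on the right of each panel, with a black bar for mean and SD over 3 libraries. KCNJ2, KCNJ10 and KCNU1 lie higher after siCHD3, KCNJ2 at 8.48 to 10.8 CPM against 1.91 to 3.18 CPM, and KCNJ6, KCND1 and KCNAB1 lie lower, and each axis starts at 0 with its own scale.

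Several members were close to a call after siCHD3. KCNE4 (0.67 ± 0.17), KCNN2 (-0.50 ± 0.14) and KCNH8 (-0.94 ± 0.27), a slowly activating voltage-gated channel, had edgeR adjusted p values of 0.0136, 0.022 and 0.0281 but log2 fold changes within 1 of 0. KCNE4 was at 14, 14.9 and 12.8 CPM after siCHD3, against 8.49, 7.98 and 9.73 CPM in siCtrl, and KCNN2 at 36.6, 34.6 and 39.4 CPM, against 54.2, 51.8 and 49.9 CPM in siCtrl. The differences were small and the groups did not overlap. KCNK5 (-1.77 ± 0.57, edgeR adjusted p = 0.0561), the silent subunit KCNG1 (-1.01 ± 0.36, 0.0617) and KCNJ14 (-0.66 ± 0.26, 0.0951) were below siCtrl in every library without passing. KCNIP3 (0.61 ± 0.23, edgeR adjusted p = 0.0811) and KCNK13 (0.77 ± 0.30, 0.0889), a two-pore channel of microglia, were on the other side. Of the 4 tested two-pore genes none passed, with 3 at an unadjusted p under 0.05, where 5320 of all 16115 genes were. KCNK5 was, however, called lower by DESeq2 and, with edgeR, without the count filter (-1.74, adjusted p = 0.000155), with DESeq2 size factors (-1.78, adjusted p = 0.0483) and in 1 fit over the 12 libraries (-1.76, adjusted p = 0.0493). Neither tested KCNQ gene was called by edgeR or DESeq2, and 1 of them had an unadjusted p under 0.05. KCNAB2 was at -0.33 ± 0.18 and KCNS3 at 0.35 ± 0.15 (edgeR adjusted p = 0.232 and 0.112).

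Calls after siCHD3 were kept by 4 of the 7 genes, KCNJ2, KCNU1, KCND1 and KCNAB1, in each fit without 1 library. KCNJ10 lost its call without siCtrl replicate 5, siCtrl replicate 6 or siCHD3 replicate 3 (adjusted p 0.0934, 0.0512 and 0.0751). KCNJ6 lost its call without siCtrl replicate 6, siCHD3 replicate 1 or siCHD3 replicate 3 (0.162, 0.0755 and 0.105). The number of members lower was 7 without siCtrl replicate 4, with KCNG1, KCNH8 and KCNK5 added, and 2 without siCHD3 replicate 3, KCND1 and KCNAB1. The glial and neuronal markers summed to 211 to 258 CPM after siCHD3, against 90.9 to 103 CPM in siCtrl, with MBP and SNAP25 higher and each of the 5 detected. The fibroblast markers summed to 18.5 to 30.7 CPM after siCHD3, against 12.7 to 13.8 CPM in siCtrl, with LUM higher. Leukocyte and endothelial markers stayed under 1 CPM in sum in each library with CD3E and PECAM1 at 0, and neither these nor keratinocyte markers gave a call. The part of these cell types in the result was not tested.

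The next question was whether the 2 silencings acted differently on the same gene. The difference of the responses (log2 fold change after siCHD4 minus that after siCHD3) was tested in 1 fit over the 12 libraries. Of 45 members tested, 8 had a higher response to siCHD4, where 6.1% of 17357 genes did, and 5 a lower one, where 5.57% of genes did. In either direction the share was 11.7% of genes, and by the adjusted p alone it was the same 13 members, where 14% of genes passed. The responses to siCHD4 and siCHD3 were of opposite sign in each of these genes except KCNJ10 and KCNJ2, for which both were positive. Some signs are uncertain, as the response was small against its SE. Examples are KCNU1 after siCHD4 (-0.04 ± 0.22), and KCNJ15 (-0.26 ± 0.36) and KCNC4 (0.26 ± 0.18) after siCHD3. Only KCNAB1 was called in opposite directions.

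KCNAB1 stood out among the genes with a higher response to siCHD4, being called in both comparisons in opposite directions. Its log2 fold changes were 1.88 after siCHD4 and -1.34 after siCHD3, a difference of 3.23 ± 0.39 (edgeR adjusted p = 0.000286). KCND1 (1.02 after siCHD4, -1.80 after siCHD3) differed by 2.84 ± 0.40 (edgeR adjusted p = 0.000733). KCNK5 (1.13 and -1.77) differed by 2.91 ± 0.73 (edgeR adjusted p = 0.0193) and KCNJ6 (1.27 and -1.69) by 2.98 ± 0.76 (0.0203). In each of these 4 genes the silenced libraries lay above siCtrl with siCHD4 and below siCtrl with siCHD3. The siCtrl sets differed as well. Their means in replicates 1 to 3 and 4 to 6 were 1.11 and 2.97 CPM for KCNAB1 and 0.865 and 1.57 CPM for KCND1. They were 0.268 and 1.06 CPM for KCNK5 and 0.412 and 0.592 CPM for KCNJ6. After siCHD3 the means of KCNAB1, KCND1, KCNK5 and KCNJ6 were 1.17, 0.451, 0.322 and 0.183 CPM. The part of the siCtrl sets in these differences was not tested. KCNJ15 (1.90 and -0.26) differed by 2.16 ± 0.45 (edgeR adjusted p = 0.00718), and KCNJ10 (2.90 and 1.30) by 1.60 ± 0.40 (0.0174). KCNN2 (0.74 and -0.50) differed by 1.24 ± 0.25 (edgeR adjusted p = 0.00533), and KCND3 (0.79 and -0.41), a relative of KCND1, by 1.21 ± 0.34 (0.0315). KCND3 was at 0.852, 0.919 and 1.1 CPM after siCHD4, against 0.591, 0.632 and 0.409 CPM in siCtrl, and at 1.02, 1.04 and 0.973 CPM after siCHD3, against 1.13, 1.54 and 1.35 CPM in siCtrl.

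The 5 genes with a lower response to siCHD4 were on the other side of this difference. KCNU1 (-0.04 after siCHD4, 1.27 after siCHD3) differed by -1.30 ± 0.24 (edgeR adjusted p = 0.00364), KCNE4 (-0.71 and 0.67) by -1.37 ± 0.26 (0.00423) and KCNJ2 (0.38 and 2.01) by -1.62 ± 0.46 (0.0352). KCNK2, a mechanosensitive two-pore channel, was at 0.553, 0.524 and 0.754 CPM after siCHD4, against 1.35, 1.03 and 0.954 CPM in siCtrl, and at 4.43, 2.46 and 2.9 CPM after siCHD3, against 2.58, 1.72 and 1.86 CPM in siCtrl. It was called in neither comparison, and its responses differed by -1.53 ± 0.40 (edgeR adjusted p = 0.0234). KCNC4 (-0.93 and 0.26) differed by -1.18 ± 0.32 (edgeR adjusted p = 0.0265). It was at 12.5, 14.6 and 12.4 CPM after siCHD3, against 9.29, 10.8 and 12.9 CPM in siCtrl. The siCtrl means in replicates 1 to 3 and 4 to 6 were 16.5 and 6.87 CPM for KCNU1 and 21 and 11 CPM for KCNC4. For KCNE4, KCNJ2 and KCNK2 the siCtrl mean was higher in replicates 4 to 6. KCNK9 (2.84 ± 0.90), KCNK3 (2.66 ± 0.86) and KCNMB1 (1.87 ± 0.62), an accessory subunit of the large-conductance calcium-activated channel, had differences just short of a call (edgeR adjusted p = 0.0549, 0.058 and 0.0631). All of these were called without siCtrl replicate 3 (2.88, 2.35 and 1.98, edgeR adjusted p = 0.0414, 0.0281 and 0.0461). The difference of KCNK9 was also called without siCHD3 replicate 2 (4.4, edgeR adjusted p = 0.00717) and that of KCNMB1 without siCHD4 replicate 3 (2.22, edgeR adjusted p = 0.021). For KCNJ12 the difference of 3.62 ± 1.43 did not pass (edgeR adjusted p = 0.116), with 5, 9 and 3 counts after siCHD3, against 2, 0 and 1 counts in siCtrl. KCNJ4 had 1 count in all over the 6 libraries of the siCHD3 table, so its response to siCHD3 was not detectable at this depth.

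**Figure D5:**
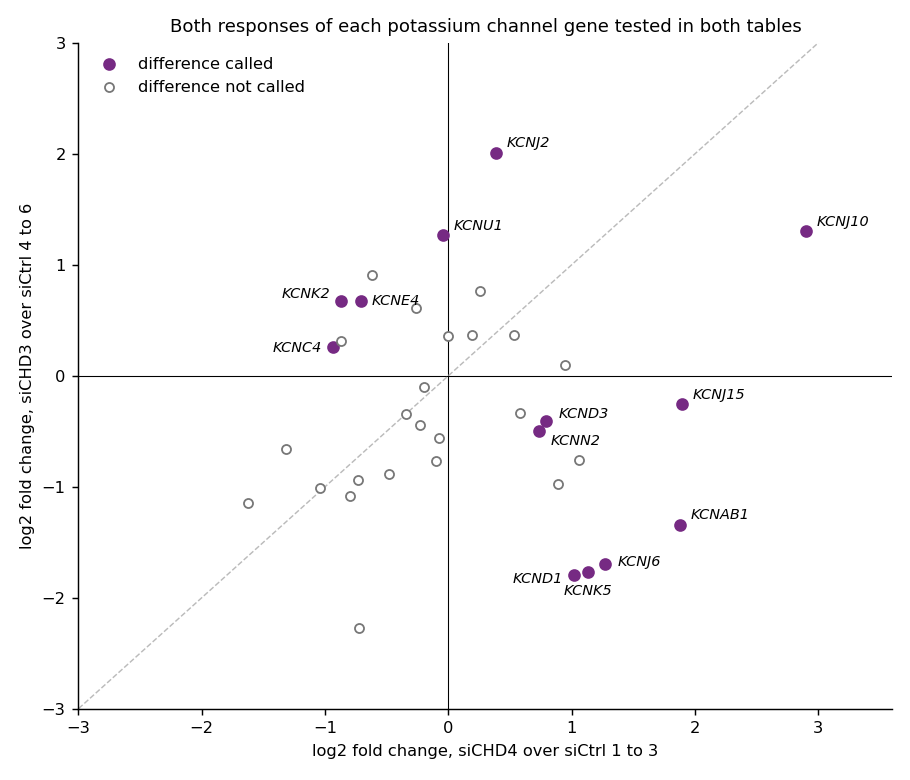
Log2 fold change after siCHD4 (horizontal axis) and after siCHD3 (vertical axis) of the 36 potassium channel genes tested in both tables, with the 13 genes whose responses differed by the test filled and named and a dashed line where both responses are equal. KCNAB1, KCND1, KCNK5 and KCNJ6 lie at the lower right, higher after siCHD4 and lower after siCHD3, and KCNJ10 alone of the named genes lies far above 0 on both axes.

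Over the 36 genes tested in both tables, 6 log2 fold changes were positive after both silencings, 12 negative after both, 10 positive after siCHD4 alone and 8 positive after siCHD3 alone. Pearson's r of the responses was 0.01 and Spearman's rho -0.02 across these genes, which are not independent replicates and come from the same libraries. The called differences of KCNAB1, KCND1, KCNE4, KCNJ15, KCNN2 and KCNU1 held in each of the 12 fits without 1 library. The others did not: adjusted p reached 0.0555 for KCNJ10 without siCtrl replicate 4, 0.0587 for KCNJ6 without siCtrl replicate 6 (also lost without siCHD3 replicate 1 or 3), 0.0527 for KCNK5 without siCtrl replicate 5 (also lost without siCHD4 replicate 3) and 0.0685 for KCNK2 without siCHD4 replicate 2 (also lost without siCHD4 replicate 1, siCtrl replicate 5 or 6 or siCHD3 replicate 1). KCND3 was lost without siCHD4 replicate 2 or 3, siCtrl replicate 5 or 6 or any siCHD3 library (up to 0.0967). KCNC4 was lost without siCHD4 replicate 1 or 3, siCtrl replicate 4 or 5 or siCHD3 replicate 1 or 2 (up to 0.0944), and without siCtrl replicate 3, where its difference was -0.83. KCNJ2 was lost without any library but siCtrl replicate 3 or 5 (up to 0.0868). Without siCtrl replicate 3, 14 members had a higher response to siCHD4, where 8.81% of genes did, and 5 a lower one, where 6.43% did. The lengths the authors used differ between the tables for 11 of the 70 shared members and for 7.86% of all shared genes. They were 5.293 and 2.943 kb for KCNJ10, 1.9295 and 10.485 kb for KCNJ6 and 2.0995 and 2.959 kb for KCNE4 (siCHD4 table, then siCHD3 table), so the reads of these genes may have been counted over different exons, and the effect on their differences was not tested.

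Members under the count filter carried weaker evidence. Of 32 such members in the siCHD4 table, 11 had a ratio of counts whose 95% interval left out 1, from counting error alone. These intervals leave out the spread between replicates. The share over all genes under the filter was not worked out, so whether 11 of 32 is unusual is not known. KCNE3 had 37 counts after siCHD4, against 8 in siCtrl (ratio 3.42, 1.57 to 8.51), KCNH6 38 against 9 (3.12, 1.48 to 7.35), KCNIP4 45 against 16 (2.08, 1.15 to 3.94) and KCNA3 33 against 12 (2.03, 1.02 to 4.33). KCNQ3 had 27 against 6 (3.33, 1.35 to 9.86), KCNG4 14 against 2 (5.18, 1.19 to 46.9) and KCNV1 13 against 1 (9.62, 1.44 to 409). KCND2 had 7 counts after siCHD4 and none in siCtrl, with a lower end of the interval of the ratio at 1.07. Its ratio was 1.73 when siCtrl as a group is set to 3 counts. On the other side, KCNMB3 had 2 counts after siCHD4, against 12 in siCtrl (0.123, 0.0134 to 0.554). KCNMA1, the large-conductance calcium-activated channel, had no count after siCHD4, against 13 in siCtrl, all of them in siCtrl replicate 2. Of the rest, KCNA2, KCNJ11, KCNK7 and KCNQ1 reached 30 counts with ratios of 0.838 to 1.55, and the other 17 had 22 counts or fewer.

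In the siCHD3 table, 36 members were under the filter and 4 intervals left out 1, again without a share over all such genes. KCNJ12 had 17 counts after siCHD3, against 3 in siCtrl (ratio 5.23, 1.51 to 27.9), KCNJ11, the pore of the ATP-sensitive channel, 26 against 11 (2.18, 1.04 to 4.9) and KCNE2 10 against 1 (9.24, 1.31 to 401), 7 of the 10 in siCHD3 replicate 1. KCNH2, the cardiac repolarising channel, had 2 counts after siCHD3, against 14 in siCtrl (0.132, 0.0146 to 0.574). KCNA2, KCNA7, KCNE1, KCNIP4, KCNJ3, KCNK3, KCNK6 and KCNMB3 reached 30 counts with ratios of 0.627 to 1.39, and 23 others had 27 counts or fewer. In GENCODE, 11 of the 81 members have more than 20% of exon bases in common with some other gene, among them KCNE1, KCNE2, KCNH1, KCNIP4, KCNJ13, KCNJ14 and KCNMB3, and their counts are uncertain. The gene ID of KCNN1 stood under a clone name in the siCHD4 table and was no member there: it had 660, 693 and 723 counts after siCHD4, against 196, 248 and 313 in siCtrl (CTB-52I2.8, 0.71 ± 0.48, edgeR adjusted p = 0.443).

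Some called members have another KCNJ gene beside them in the genome, with distances taken between GENCODE gene bounds (GRCh37). By these bounds KCNJ15 and KCNJ6 are 34204 bases apart on chromosome 21. The RefSeq promoters shown above lie much further apart, at chr21:38272258-38272507 for KCNJ15 and chr21:37916458-37916707 for KCNJ6 (GRCh38.p14). The distance thus depends on the annotation. After siCHD4 KCNJ15 was at 1.90 and KCNJ6 at 1.27 on the log2 scale, without overlap between the groups for either, and KCNJ6 was called without siCtrl replicate 3 (1.80, edgeR adjusted p = 0.00358). After siCHD3 KCNJ6 was at -1.69 and KCNJ15 at -0.26. KCNJ16 and KCNJ9 had too few counts to be tested. KCNJ16 lies 33065 bases from KCNJ2 on chromosome 17 and had 6, 0 and 0 counts after siCHD3, against 1, 1 and 3 in siCtrl (ratio 1.11, 0.282 to 4.59), an interval that holds the 4.02-fold rise of KCNJ2. KCNJ9 lies 11378 bases from KCNJ10 on chromosome 1 and had 0, 0 and 1 counts after siCHD4, against 1, 2 and 0 in siCtrl (0.247, 0.0047 to 3.07), an interval below the 7.45-fold rise of KCNJ10. With 4 counts in all and an interval from counting error only, whether KCNJ9 shared this rise cannot be judged.

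Genes that handle potassium outside the KCN symbols were listed for context: HCN channels, sodium pumps, partner proteins, cotransporters and exchangers. After siCHD4, 4 of 28 tested were higher and 1 lower, where 4.8% and 1.65% of all genes were. The higher genes included ATP1A4 (2.66 ± 0.37, edgeR adjusted p = 0.00706), a catalytic subunit of the sodium pump, FXYD6 (2.74 ± 0.25, 0.0015), a pump modulator, and the potassium-dependent sodium-calcium exchanger SLC24A2 (2.17 ± 0.36, 0.0113). The exchanger SLC24A4 was lower, at 4.12, 4.3 and 4.43 CPM after siCHD4, against 22.1, 22.7 and 20.7 CPM in siCtrl (-2.35 ± 0.19, edgeR adjusted p = 0.00103). FXYD6 and SLC24A4 kept their calls without any 1 library, while ATP1A4 lost its call without siCHD4 replicate 1 (0.0531). For SLC24A2 each of the siCHD4 libraries and siCtrl replicate 2 were needed (adjusted p at most 0.0698 when 1 was left out). The higher genes were then 2 without siCtrl replicate 2 or siCHD4 replicate 2 and 1 without siCHD4 replicate 1, and the lower genes 2 without siCtrl replicate 1 or 3.

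After siCHD3, 4 of 24 of these genes were higher and 2 lower, where 3.89% and 4.33% of all genes were. HCN2, a pacemaker channel that passes sodium and potassium, was at 28.1, 35.8 and 20.3 CPM after siCHD3, against 3.53, 5.43 and 7.82 CPM in siCtrl (2.32 ± 0.31, edgeR adjusted p = 0.000937). HCN3 (1.26 ± 0.19, edgeR adjusted p = 0.000773), its relative, and LRRC55 (4.0 ± 0.66, 0.0012), a partner of the large-conductance channel at 0.463, 0.331 and 0.432 CPM after siCHD3, against 0, 0.0193 and 0.051 CPM in siCtrl, also rose. ABCC9, the sulphonylurea receptor of muscle ATP-sensitive channels, fell (-1.94 ± 0.45, edgeR adjusted p = 0.00964). The lower genes were 1 without siCHD3 replicate 3.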

How the data were processed

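RNA-seq was compared in 501Mel cells, 3 libraries a group. Per the labels, 6 ng of RNA was amplified linearly before library preparation. The submitters' notes name CASAVA 1.8.2, cutadapt 1.10, TopHat2 2.0.10, Bowtie2 2.2.8 and 2.1.0, HTSeq and DESeq2 with the hg19 build. Neither the annotation release nor the strand setting is given in the sources used here. The deposited tables hold raw read counts per gene, made by the authors, a normalized signal for which the authors divided counts by 1 size factor per library, and the gene length they used. Only raw counts and lengths entered the results. Columns with the authors' fold changes and p-values were not used. Genes of low count were removed with filterByExpr, libraries were scaled by TMM, and each silencing was tested against the siCtrl of its own table with the quasi-likelihood test of edgeR 4.0.16 (R 4.3.3), with Benjamini-Hochberg adjustment over all genes. The SE is the absolute log2 fold change over the square root of F. Calls required both an absolute log2 fold change over 1 and an adjusted p under 0.05. Ratios of counts have exact conditional binomial 95% intervals. The scripts were tested on simulated data. Alternatives were DESeq2 1.42.0, DESeq2 size factors, no filter, 1 fit over the 12 libraries, a replicate block, the adjusted p alone, and fits without 1 library. GENCODE exon lengths for the levels were chosen after seeing the data. Genes named are those called, those with an adjusted p under 0.1 and those needed to describe a family. Members, marker lists and the list of other potassium handling genes were chosen with earlier results of these data known. Exon overlap was read from GENCODE (GRCh37) and promoters from RefSeq (GRCh38.p14). Some genes that meet these rules are counted but not reported here by name.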

Additional observations from a re-analysis of the deposited data

Results flagged for a closer look

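The responses to siCHD4 and siCHD3 differed by test for 13 potassium channel genes, which singles them out for a closer look. The log2 response to siCHD4 minus that to siCHD3 was 3.23 for KCNAB1, 2.98 for KCNJ6, 2.91 for KCNK5, 2.84 for KCND1, 2.16 for KCNJ15, 1.6 for KCNJ10, 1.24 for KCNN2 and 1.21 for KCND3. It was -1.62 for KCNJ2, -1.53 for KCNK2, -1.37 for KCNE4, -1.3 for KCNU1 and -1.18 for KCNC4. The silencings were counted in separate tables, each with its own siCtrl libraries, so the table and the silencing cannot be told apart.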

How the results depend on the processing

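No member with an adjusted p under 0.1, and no called gene outside the KCN symbols, changed direction under any alternative run. The other members were not checked in every run. KCNS3 after siCHD4, near 0, went from -0.0056 to 0.0075 on the log2 scale in the fit over the 12 libraries. Members called lower after siCHD4, 0 by edgeR, were 1 without the count filter and 1 by DESeq2 (KCNH4 in both), and 2 in the fit over the 12 libraries (KCNH4 and KCNJ14). Other potassium handling genes lower after siCHD4 were 2 under each of these 3 settings. Leaving out 1 library gave 2 to 15 members higher and 0 to 1 lower after siCHD4, 2 to 3 higher and 2 to 7 lower after siCHD3, and 6 to 14 with a higher and 2 to 5 with a lower response to siCHD4. For the other potassium handling genes it gave 1 to 5 higher and 1 to 2 lower after siCHD4, and 4 to 5 higher and 1 to 2 lower after siCHD3. KCNJ6 lost its call after siCHD3 in the fit over the 12 libraries (adjusted p = 0.081), while KCNK5 was called lower there (0.0493), with DESeq2 size factors (0.0483) and without the filter (0.000155), and the difference of KCND3 lost its call without the filter (0.0735). Same-numbered siCHD4 and siCtrl libraries had correlations of 0.033, 0.02 and 0.023, within the -0.124 to 0.108 of pairs of unlike number. The replicate numbers thus gave no sign of pairing, but such correlations cannot show whether cultures were shared. With the replicate block 5 members were higher, KCNJ3 (0.107) and KCNK9 (0.0519) being lost. For siCHD3 no such block was possible because siCHD3 and its siCtrl libraries share no replicate number. Low counts limit what could be tested, and 32 of 78 and 36 of 73 members were not tested for that reason.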
